A study of Homo sapiens with 24 samples.

Results

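Huh7 cells treated with an extract of Pulsatilla chinensis were compared with Huh7 control cells by RNA sequencing. The comparison used 6 of the 24 samples of the series, 3 treated and 3 control, and took every gene with a mean above 5 counts in these 6 samples, which left 13992 of the 14585 genes of the table. Huh7 is a human hepatocellular carcinoma line which makes many proteins of the hepatocyte. The other samples of the series were Huh7 cells given Bupleurum chinense or Polyporus umbellatus, and the human lung adenocarcinoma line A549 given the same herbs or none. The herbs had been chosen by the study for their effect on the viability of both lines, and the comparison asks which genes answered to P. chinensis in the liver line. The extracts were crude ethanol extracts dissolved in DMSO. The sources used here do not say whether control cells received DMSO, nor how much extract the sequenced cells were given or for how long. Libraries were stranded and made after depletion of ribosomal RNA, which keeps transcripts that lack a poly(A) tail, such as most histone mRNAs.

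Stress at the cell surface, in the cytosol or in the endoplasmic reticulum reaches the nucleus through a small number of transcription factors. AP-1 is built of FOS and JUN proteins, whose own genes are among the early response genes. AP-1 and NF-kB switch on genes such as those of chemokines. NRF2, AHR and MTF1 switch on genes for oxidants, aromatic compounds and metals, and ATF4 raises genes of amino acid supply. The SREBP factors keep the genes of sterol and fatty acid synthesis on when membrane sterol is low. E2F factors drive the genes of DNA replication, p53 drives arrest and death genes, and HNF4A, FOXA and C/EBP factors hold the hepatocyte programme.

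The treated libraries summed to 24340250, 22917605 and 13259204 counts and the control libraries to 20225796, 16455709 and 24345541 counts. On the first principal component, which held 52.95% of the variance, the treated libraries lay between −35.4 and −29.8 and the control libraries between 30.6 and 32.4. The second component held 13.9% and set treated replicate 3, the shallowest library, at 27.8 against −19.0 and −11.2 for the other treated libraries. All 8 hepatocyte and hepatoma markers passed the filter, with a summed level of 13080 to 13920 library-scaled counts (CPM) in treated and 20830 to 21270 CPM in control cells. Of 6 markers of A549 cells, SFTA3 and NKX2-1 were not in the table, KRT7, KRT81 and MUC5AC never exceeded 3 counts, and the sum stayed between 0.353 and 1.49 CPM in all 6 libraries. The labels do not say that replicates were separate cultures, so the p-values measure the spread between these libraries, which may be technical. The samples were bulk RNA, in which a lower level can come from fewer cells of a kind or from less RNA per cell, and these cannot be told apart.

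With P. chinensis, 2879 genes were higher and 3013 lower in edgeR's quasi-likelihood test at a Benjamini-Hochberg adjusted p below 0.05, which is 20.6% and 21.5% of the genes tested. Large rises outnumbered large falls. A change of more than 2-fold was found for 554 of the genes called higher and 168 of those called lower, and a change of more than 4-fold for 151 and 16. The median absolute log2 fold change was 0.43 for genes called higher and 0.36 for genes called lower. Of the called genes, 2837 higher and 2965 lower had no overlap between the 3 treated and the 3 control values, and so did 1632 of the 8100 genes not called. The balance of rises and falls rested on the scaling. Genes called higher made up 48.9% of calls with TMM scaling and 59.7% (3624 higher, 2442 lower) with library totals alone, which raised the medians of the 40 gene lists described here by 0.0554 to 0.0566. In a fit of all 12 Huh7 libraries, which share 1 estimate of the spread, 1372 genes were higher and 1589 lower, and counts from this fit are given beside a group where the larger of its counts differs by more than 1.5-fold.

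**Figure D1:**
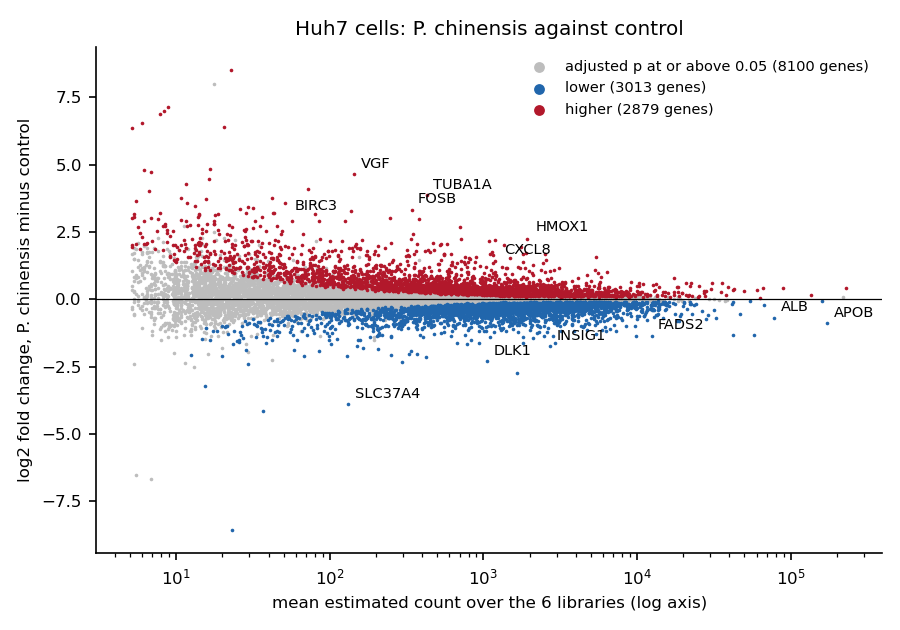
Log2 fold change of each of the 13992 genes (vertical axis, P. chinensis against control) against its mean level over the 6 libraries (horizontal axis, mean estimated count on a log scale). Genes called higher and lower are coloured and some of the named genes are labelled. The 151 called rises above 4-fold outnumber the 16 such falls, and VGF at 4.63 and SLC37A4 at −3.91 lie at the extremes of the genes named by size, which have a mean of at least 100 counts.

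The genes that changed most came from several programmes. Those named by size were chosen among called genes whose groups did not overlap, so their lack of overlap follows from that choice. VGF, which encodes a secreted neuropeptide precursor and lies at chr7:101162509-101165569 (GRCh38, as are all positions below), was at 12.4, 13.5 and 15.6 CPM with P. chinensis against 0.403, 0.496 and 0.712 CPM in control. All treated values lay far above all control values, a log2 fold change of 4.63 ± 0.21 (SE), edgeR adjusted p = 2.82e-07. TUBA1A (chr12:49184686-49189080), an alpha tubulin best known from neurons, was at 38.01, 40.8 and 38.7 CPM with P. chinensis against 2.02, 2.66 and 3.35 CPM in control. It was the second largest rise among the genes named by size, with no overlap and a change of 3.85 ± 0.15 (SE), edgeR adjusted p = 1.57e-07. CYP1B1, a cytochrome P450 induced through AHR, rose by 3.02, the membrane mucin MUC13 by 2.98, the hyaluronan receptor CD44 by 2.24 and the stress-induced polo-like kinase PLK2 by 2.22 on the log2 scale. ZNF385A rose by 3.29, CRISPLD2, a secreted protein, by 2.44, the small GTPase GEM by 2.21, and RSRP1 by 2.17. Among the falls, SLC37A4 (chr11:119023751-119030906), the glucose-6-phosphate carrier of the endoplasmic reticulum, was at 0.282, 1.83 and 0 CPM with P. chinensis against 11.8, 6.75 and 16.8 CPM in control. The levels did not overlap, 1 treated library had no count, and the change was −3.91 ± 0.66 (SE), edgeR adjusted p = 0.00108. DLK1, a Notch-like membrane protein of fetal liver and hepatoma, fell by 2.29, the amino acid transporter SLC6A14 by 2.16, BRINP3 by 2.12 and the teneurin TENM2 by 1.85. NAGS, whose product N-acetylglutamate switches on the urea cycle, fell by 1.92, and SHMT1, the cytosolic serine hydroxymethyltransferase, by 2.03. SOCS1, an inhibitor of cytokine receptor signalling, fell by 1.80, the cytokine gene TNFSF4 by 1.73, and MYCN by 1.65.

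Early response genes rose together. Of 29 members tested, 24 were higher and 2 lower (none lower without treated replicate 2, control replicate 2 or control replicate 3, and 1 without either other treated replicate), with a median log2 fold change of 0.89 against 0.01 over all genes. FOSB, a FOS family member of AP-1, was at 31.1, 30.02 and 29.4 CPM with P. chinensis against 3.07, 2.91 and 3.02 CPM in control. The treated libraries were all higher, by 3.33 ± 0.10 (SE), edgeR adjusted p = 3.21e-08. FOS itself was at 18.02, 12.8 and 18.4 CPM with P. chinensis against 4.94, 3.72 and 3.85 CPM in control, again without overlap. JUNB rose by 1.52, FOSL1 by 1.17, JUN by 0.56, and JUND, whose groups overlapped, fell by 0.21. ATF3, a repressor in the same protein family that many stresses induce, was at 32.8, 34.2 and 33.4 CPM with P. chinensis against 9.62, 9.36 and 9.18 CPM in control. That is a rise of 1.83 ± 0.08 (SE), edgeR adjusted p = 2.27e-07. GADD45B and GADD45A, which bind stress kinases and cell cycle proteins, rose by 2.66 and 1.43. The orphan nuclear receptor NR4A3 rose by 2.41, and its relatives NR4A2 and NR4A1 by 0.49 and 0.38. EGR1 rose by 1.37, CCN1 by 1.36, SNAI1 by 0.75 and MYC by 0.26, and CSRNP1 by 0.23. MYC and CSRNP1 lost their calls in the fit of all 12 Huh7 libraries (edgeR adjusted p of 0.0953 and 0.338). The level of CCN2, another secreted CCN protein, moved by −0.02 with overlapping groups and was not called. Among Kruppel-like factors, 6 of 14 were higher and 3 lower (5 and 1 in the fit of all 12 libraries). The share lower, 21.4%, was near the 21.5% of all genes. The median was 0.08, and 0.17 without control replicate 3. KLF4, KLF10 and KLF6, which are themselves early response genes, rose by 1.51, 1.43 and 1.09, and KLF15, a factor of fasting metabolism in liver, fell by 1.02.

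The promoter of VGF is shown because this gene had the largest rise among the genes named by size. It holds the cyclic AMP response element TGACGTCA, which is its own reverse complement and was found within 250 bases before the start of 2.77% of 11337 tested genes with a RefSeq promoter and of 2 of 21 early response genes. The sequence is from RefSeq on GRCh38.p14 (chr7:101165570-101165819, minus strand), 5′ to 3′ on the strand of the gene, with the element in capitals 79 to 72 bases before the start. The AP-1 motif TGANTCA was searched in the same stretches on both strands. It was found for 0 of the 21 early response genes and for 4.08% of the 11337 genes. A match of letters is a description and no evidence of binding.
VGF: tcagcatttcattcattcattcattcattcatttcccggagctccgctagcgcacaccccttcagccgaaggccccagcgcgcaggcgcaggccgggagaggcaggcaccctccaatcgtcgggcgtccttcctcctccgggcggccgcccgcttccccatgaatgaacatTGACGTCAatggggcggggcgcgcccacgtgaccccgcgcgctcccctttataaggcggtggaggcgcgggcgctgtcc

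Many genes of the NF-kB pathway rose beside the early response genes. Of 32 genes for NF-kB subunits, their kinases and their feedback inhibitors, 17 were higher and 3 lower, with a median of 0.32 (11 and 1 in the fit of all 12 Huh7 libraries). The largest rises were those of BIRC3 and TNFAIP3. BIRC3 (chr11:102317484-102339403), a ubiquitin ligase of the TNF receptor complex, was at 10.7, 10.7 and 11.1 CPM with P. chinensis against 1.66, 1.36 and 1.26 CPM in control. No treated value came near the control values, and the change was 2.92 ± 0.16 (SE), edgeR adjusted p = 7.99e-07. TNFAIP3 (A20, chr6:137867214-137883314), which removes ubiquitin chains from the same complex, was at 40.95, 42.7 and 38.6 CPM with P. chinensis against 8.82, 10.7 and 10.9 CPM in control. It rose without overlap by 2.01 ± 0.10 (SE), edgeR adjusted p = 4.18e-07. ZC3H12A, an RNase that degrades cytokine mRNAs, rose by 1.14, and NFKBIA, the inhibitor that holds NF-kB in the cytosol, was at 51.99, 45.8 and 48.03 CPM with P. chinensis against 27.1, 28 and 29.03 CPM in control. The rise of NFKBIA was 0.79 ± 0.07 (SE), edgeR adjusted p = 1.53e-05. MAP3K14, the kinase of the alternative pathway, rose by 0.90 and its substrate NFKB2 by 0.76. The subunits RELB and RELA rose by 0.42 and 0.31, calls that were lost in the fit of all 12 libraries (adjusted p of 0.181 and 0.127) and, for RELB, without treated replicate 1 (adjusted p of 0.0701) or treated replicate 3 (adjusted p of 0.0508). NFKB1 was at 48.8, 44.7 and 54.9 CPM with P. chinensis against 51.9, 53.8 and 50.4 CPM in control. These groups overlapped and NFKB1 was not called (−0.08 ± 0.07 (SE), edgeR adjusted p = 0.43).

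The promoters of TNFAIP3, BIRC3 and NFKBIA are shown as examples from the genes of the list that rose. Other genes that rose, among them ZC3H12A and MAP3K14 with larger changes than NFKBIA, are not shown. Each promoter shown holds the NF-kB consensus, searched on both strands, and the capitals mark a match on either strand. The consensus was found in the 250 bases before the start of 5.83% of all tested genes with a RefSeq promoter, in 9 of 28 NF-kB genes (32.1%) and in 9 of 19 chemokine, cytokine and adhesion genes (47.4%). It was also found in 7 of 19 interferon-stimulated genes (36.8%). Of all genes called higher 6.77% held it, and of those called lower 5.52%. As for VGF, a match of letters is no evidence of binding. The matches lie 67 to 58 and 55 to 46 bases before the start of TNFAIP3 (chr6:137867009-137867258, plus strand), 199 to 190 and 135 to 126 bases before that of BIRC3 (chr11:102317234-102317483, plus strand) and 81 to 72 bases before that of NFKBIA (chr14:35404750-35404999, minus strand), all from RefSeq on GRCh38.p14.
TNFAIP3: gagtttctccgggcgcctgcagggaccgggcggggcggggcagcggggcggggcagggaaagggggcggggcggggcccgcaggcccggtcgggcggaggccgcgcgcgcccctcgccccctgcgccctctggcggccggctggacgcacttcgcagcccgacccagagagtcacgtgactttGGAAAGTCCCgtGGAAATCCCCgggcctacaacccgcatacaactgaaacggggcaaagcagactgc
BIRC3: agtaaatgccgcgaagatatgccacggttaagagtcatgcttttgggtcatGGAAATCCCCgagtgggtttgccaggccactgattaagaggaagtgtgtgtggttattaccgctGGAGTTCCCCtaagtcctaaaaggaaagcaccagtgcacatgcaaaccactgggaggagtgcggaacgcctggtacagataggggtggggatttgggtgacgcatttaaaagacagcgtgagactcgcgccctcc
NFKBIA: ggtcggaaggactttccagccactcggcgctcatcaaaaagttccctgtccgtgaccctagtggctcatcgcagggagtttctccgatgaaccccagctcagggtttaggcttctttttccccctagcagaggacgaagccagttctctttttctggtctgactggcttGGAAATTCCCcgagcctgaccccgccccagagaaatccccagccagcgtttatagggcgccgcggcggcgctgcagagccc

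Chemokines and cytokines were mostly higher. Of 25 genes tested, 15 were higher and none lower, with a median of 0.68, and without control replicate 2 14 were higher and 3 lower. CXCL8, which attracts neutrophils, was at 88.3, 81.04 and 89.4 CPM with P. chinensis against 25.6, 27.9 and 23.9 CPM in control. Its treated values were all higher, by 1.75 ± 0.07 (SE), edgeR adjusted p = 1.58e-07. CXCL1 was at 12.3, 12.1 and 11.8 CPM with P. chinensis against 3.02, 4.52 and 2.47 CPM in control, and CXCL2 at 7.82, 6.81 and 6.99 CPM with P. chinensis against 1.81, 2.35 and 2.85 CPM in control. These neighbours of CXCL8 in function rose by 1.88 and 1.62. CXCL10, an interferon-induced attractant of T cells, was at 1.41, 1.24 and 2.45 CPM with P. chinensis against 0.202, 0.248 and 0.126 CPM in control. This rise of 3.12 rests on few counts. IL32 rose by 1.35, GDF15, a cytokine of cell stress, by 1.44, and the surface proteoglycan SDC4 by 0.98. CCL20, ICAM1 and SOD2, 3 further genes known to answer NF-kB, stood at 0.03, 0.23 and −0.10, of which only ICAM1 was called. The leukocyte markers in the table, PTPRC, CD14 and LYZ, summed to 417 to 439 CPM in treated and 708 to 750 CPM in control libraries. Whether any leukocytes were present was not tested, and the summed hepatocyte markers were lower in treated libraries as well.

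**Figure D2:**
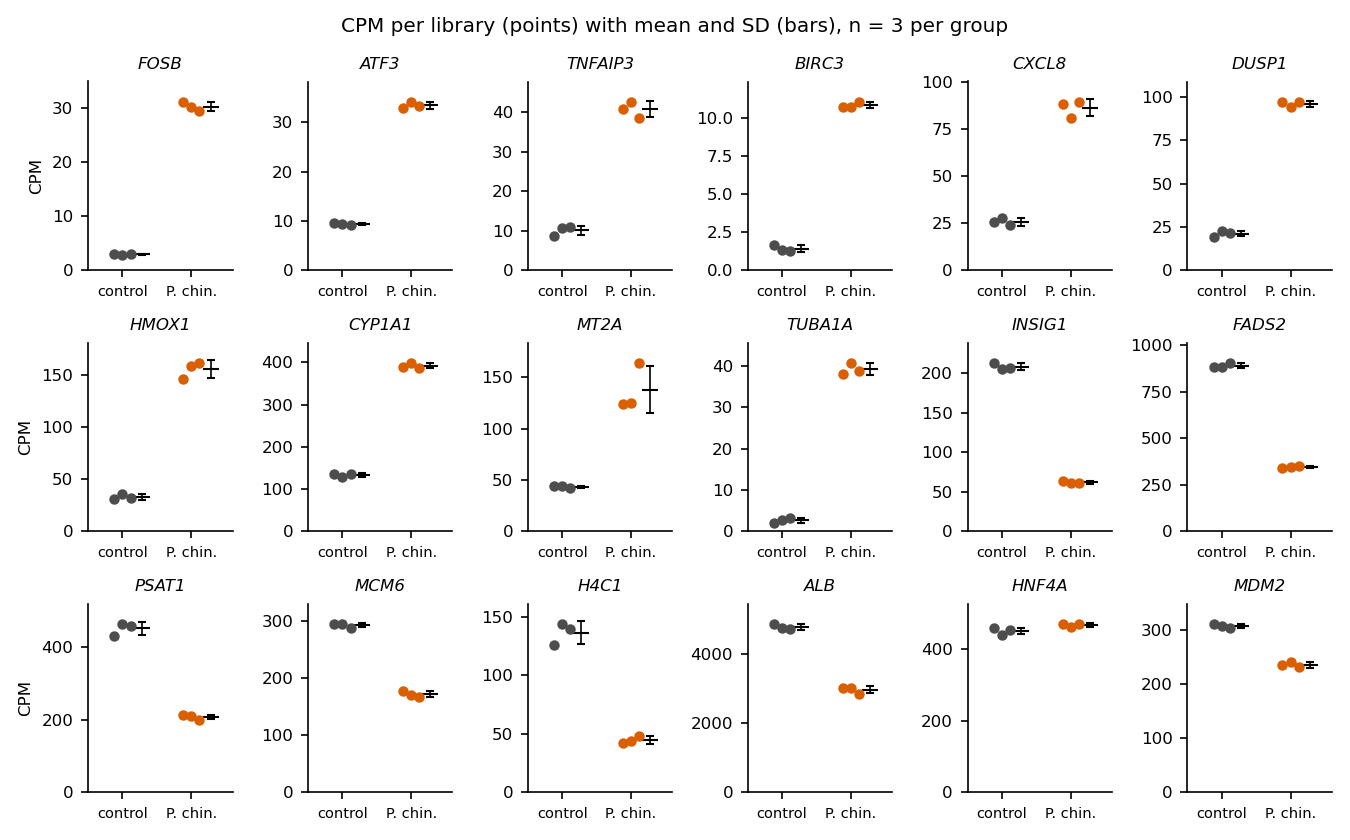
Level of 18 genes in each of the 6 libraries (vertical axes, CPM, each starting at 0); points are libraries, bars the mean and whiskers 1 SD of the 3 treated and 3 control libraries. FOSB, TNFAIP3, CXCL8 and HMOX1 stand higher in every treated library, and INSIG1, FADS2, PSAT1, MCM6, H4C1 and ALB lower.

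Genes that report on receptor signalling moved both ways. DUSP1, a phosphatase that switches off stress kinases, was at 96.7, 93.95 and 97.1 CPM with P. chinensis against 19.4, 22.6 and 21.4 CPM in control. It rose without overlap by 2.18 ± 0.06 (SE), edgeR adjusted p = 2.43e-08. DUSP10 rose by 1.11. SPRY1 and SPRY2, which restrain ERK signalling below growth factor receptors, fell by 1.08 and 0.55, and the ERK phosphatase DUSP6 fell by 0.48. Over the whole list of ERK and receptor feedback genes 6 of 20 were higher and 8 lower, with a median of −0.13 (4 and 6 in the fit of all 12 libraries). That median was −0.26 without control replicate 1 and −0.03 without control replicate 2. Of 11 receptors and ligands of the EGF family 4 were higher and 3 lower, with a median of 0.19 (3 and 2 in that fit). The ligands HBEGF and AREG were at 6.97, 8.22 and 10.3 CPM with P. chinensis against 2.52, 2.29 and 2.26 CPM in control and 33.6, 32.5 and 36.2 CPM with P. chinensis against 10.1, 10.3 and 10.1 CPM in control. Both rose without overlap, by 1.84 and 1.75. The ligand EGF fell by 0.74, the receptor ERBB3 by 0.90 and ERBB2 by 0.26, and EGFR rose by 0.19.

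Interferon-stimulated genes were higher in part. Of 26 tested, 11 were higher and 2 lower (1 lower without treated replicate 2 or control replicate 1), with a median of 0.56. Over the 19 members with a mean count above 50 the median was 0.36. IRF9, the DNA-binding subunit of the interferon transcription complex, was at 4.55, 5.03 and 3.57 CPM with P. chinensis against 1.56, 1.11 and 0.880 CPM in control. It rose by 1.90 ± 0.26 (SE), edgeR adjusted p = 0.000344. IRF1 rose by 1.26, the membrane protein IFITM3 by 1.06, the ubiquitin-like protein ISG15 by 1.04 and the antiviral GTPase MX1 by 1.73. IFIT1, IFIT3 and STAT2, which respond to the same complex, stood at 0.07, 0.03 and 0.07 without a call. HLA-E stood at −0.60 without a call, and it shares sequence with its relatives, so that the estimation of counts could split their reads.

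Genes that answer YAP and TGF-beta, and genes of epithelial attachment, were mostly higher. Of 26 YAP and TGF-beta responsive genes 18 were higher and 1 lower, with a median of 0.55. TAGLN, an actin-binding protein, was at 17.7, 17.9 and 20.7 CPM with P. chinensis against 6.40, 7.93 and 6.08 CPM in control. It was higher in all treated libraries, by 1.47 ± 0.13 (SE), edgeR adjusted p = 2.07e-05. ANKRD1, a target of YAP, rose by 1.37. CCN2, given above with the early response genes, was not called. SMAD7 rose by 0.69 and SMAD6, another inhibitor of the pathway, fell by 0.58. Markers of fibroblasts and stellate cells summed to 20.2 to 29.3 CPM in treated and 12.4 to 14.7 CPM in control libraries, with all 5 in the table; their part in this result was not tested. Of 39 keratins, junction, integrin, laminin and actin genes 21 were higher and 7 lower, with a median of 0.20 (12 and 5 in the fit of all 12 libraries). CLDN4, a tight junction claudin, was at 43.1, 41.8 and 39.5 CPM with P. chinensis against 13.9, 12.4 and 12.2 CPM in control, a rise of 1.69 ± 0.08 (SE), edgeR adjusted p = 3.82e-07. The laminin-332 subunits LAMB3 and LAMA3 rose by 2.52 and 1.17, and the laminin receptor subunit ITGA3 by 2.19. PLAU, the urokinase that cleaves plasminogen, rose by 0.94 and lost its call without treated replicate 1 (adjusted p of 0.0557). The cadherin CDH1 fell by 0.31 and CDH2 rose by 0.41.

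Stress pathways for oxidants, aromatic compounds, metals and heat did not move as a block. HMOX1, the haem oxygenase, was at 146, 159 and 162 CPM with P. chinensis against 31.3, 36.1 and 32.05 CPM in control. It rose without overlap by 2.24 ± 0.06 (SE), edgeR adjusted p = 2.43e-08. NRF2 targets as a list split, with 13 of 28 higher and 9 lower (8 and 5 in the fit of all 12 libraries) and a median of 0.03 that turned to −0.01 without control replicate 2, was 0.09 without control replicate 1 and 0.05 without treated replicate 1 or 3. TXNRD1 and the ferritin chains FTL and FTH1 rose by 0.54, 0.43 and 0.32. NQO1, an NRF2 target often used as its reporter, fell by 0.43, GCLM by 0.28, PIR by 0.60, ME1 by 0.59 and SLC7A11, the cystine transporter, by 0.88. Of 10 AHR targets 5 were higher and 1 lower, with a median of 0.53 (3 and 1 in the fit of all 12 libraries), which was 0.997 over the 7 with a mean count above 50. CYP1A1 was at 389.6, 399 and 387 CPM with P. chinensis against 135, 129 and 137 CPM in control and CYP1B1 at 20.8, 22.9 and 20.3 CPM with P. chinensis against 2.72, 2.23 and 2.85 CPM in control. Both were higher in each treated library, CYP1A1 by 1.55 ± 0.03 (SE), edgeR adjusted p = 6.32e-09 and CYP1B1 by 3.02 ± 0.13 (SE), edgeR adjusted p = 2.06e-07. TIPARP, which represses AHR, rose by 1.15, and AHRR by 0.98, a call lost without treated replicate 1 (adjusted p of 0.057), treated replicate 3 (adjusted p of 0.0516) or control replicate 3 (adjusted p of 0.0596) and in the fit of all 12 libraries (adjusted p of 0.3). Of 12 metallothioneins and zinc transport genes 8 were higher and 1 lower, with a median of 0.91. MT2A was at 124, 125 and 164 CPM with P. chinensis against 43.99, 43.7 and 41.9 CPM in control, a rise of 1.67 ± 0.10 (SE), edgeR adjusted p = 1.6e-06. MT1X, MT1G and MT1M rose by 1.38, 1.20 and 1.65, and the zinc exporter SLC30A1, an MTF1 target like the metallothioneins, stood at −0.03 without a call. Metallothioneins are near copies of each other, so the division of reads between them is uncertain. Of 16 cytosolic heat shock genes 10 were higher and 1 lower, with a median of 0.22 (5 and 0 in the fit of all 12 libraries, and 2 lower without treated replicate 2 or control replicate 1). HSPB8, a small heat shock protein, rose by 1.07, its partner BAG3 by 0.40, DNAJB4 by 0.64 and HSPH1 by 0.42. BAG3 lost its call in the fit of all 12 libraries (adjusted p of 0.0877).

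Genes of amino acid supply fell. Of 38 ATF4 and amino acid stress genes 28 were lower and 4 higher, with a median of −0.58. PSAT1, an enzyme of serine synthesis, was at 213, 209.7 and 201 CPM with P. chinensis against 432, 466 and 460.0 CPM in control. The treated values were all lower, with a log2 fold change of −1.12 ± 0.04 (SE), edgeR adjusted p = 7.48e-08. ASNS, asparagine synthetase, was at 85.04, 84.1 and 83.4 CPM with P. chinensis against 164, 189 and 183 CPM in control. It fell without overlap, with a log2 fold change of −1.08 ± 0.05 (SE), edgeR adjusted p = 3.79e-07. PHGDH, the first enzyme of serine synthesis, fell by 0.98, SHMT2 by 1.05, GPT2 by 1.10, PCK2 by 0.82 and TRIB3, a pseudokinase induced by ATF4, by 0.97. DDIT3 (CHOP), which ATF4 also drives, went the other way at 37.7, 35.6 and 31.9 CPM with P. chinensis against 13.2, 16.4 and 13.4 CPM in control. Its rise was 1.30 ± 0.11 (SE), edgeR adjusted p = 1.13e-05. DDIT4, SESN2 and SLC3A2 rose by 0.51, 0.53 and 0.47. ATF4 mRNA itself fell by 0.10. Among 24 chaperones and folding genes of the endoplasmic reticulum 6 were higher and 10 lower (3 and 6 in the fit of all 12 libraries). The share higher, 25%, was near the 20.6% of all genes. The median of these 24 genes was −0.04 with TMM scaling and 0.01 with library totals alone. It lay between −0.08 and −0.07 without any 1 treated replicate or control replicate 2. HERPUD1, which helps remove misfolded proteins, rose by 0.83, HSPA5, the main chaperone of the compartment, by 0.13 and CREB3L3 by 0.49, and HYOU1, CREB3L2, PDIA4 and XBP1 fell by 0.55, 0.50, 0.47 and 0.48. CREB3L3 lost its call in the fit of all 12 libraries (adjusted p of 0.201).

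The genes of cholesterol synthesis fell almost throughout. Of 28 genes 25 were lower and none higher, with a median of −0.84. INSIG1, which holds SREBP in the endoplasmic reticulum and is itself an SREBP target, was at 64.2, 60.6 and 61.04 CPM with P. chinensis against 213, 205 and 207 CPM in control. It fell without overlap, with a log2 fold change of −1.75 ± 0.04 (SE), edgeR adjusted p = 6.32e-09. MVD and HSD17B7, enzymes of the mevalonate and late sterol steps, fell by 1.42 and 1.24. HMGCS1 fell by 0.68, SQLE by 0.87, LSS by 0.96, DHCR7 by 0.96 and the factor SREBF2 by 0.42. GGPS1, of the isoprenoid branch, and PMVK, of the mevalonate pathway, stood at 0.09 and 0.17 without a call.

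Fatty acid synthesis fell with it. Of 29 genes 19 were lower and 3 higher, with a median of −0.64. PNPLA3, a lipid droplet protein driven by SREBP1, was at 7.46, 7.84 and 6.32 CPM with P. chinensis against 30.4, 30.2 and 28.5 CPM in control. ACSS2, which makes acetyl-CoA from acetate, was at 18.2, 16.2 and 14.3 CPM with P. chinensis against 49.2, 51.7 and 51.5 CPM in control. Both fell without overlap, with log2 fold changes of −2.03 ± 0.10 (SE), edgeR adjusted p = 5.48e-07 and −1.63 ± 0.09 (SE), edgeR adjusted p = 6.93e-07. FADS2, the delta-6 desaturase, was at 342, 348 and 354 CPM with P. chinensis against 884, 882 and 906 CPM in control, a change of −1.36 ± 0.03 (SE), edgeR adjusted p = 5.56e-09. FASN, the fatty acid synthase, fell by 1.34, SCD by 1.33, GPAM, which starts glycerolipid synthesis, by 1.41, and the factor SREBF1 by 0.98. The acyl-CoA synthetases ACSL5 and ACSL1 rose by 0.75 and 0.33, and ACSL3 and ACSL4 fell by 0.87 and 0.76. MLXIPL (ChREBP) was not called and its groups overlapped (−0.43 ± 0.33 (SE), edgeR adjusted p = 0.33). In fatty acid oxidation 6 of 35 genes were higher, a share of 17.1% below the 20.6% of all genes, and 12 lower. In the fit of all 12 libraries 4 were higher and 8 lower. The median was −0.13, and −0.08 without control replicate 3. CPT1A, which passes acyl chains into mitochondria, was at 43.6, 45.3 and 42.8 CPM with P. chinensis against 16.7, 17.1 and 16.6 CPM in control. It rose by 1.39 ± 0.07 (SE), edgeR adjusted p = 3.76e-07. PPARGC1A, a coactivator of mitochondrial genes, rose by 1.36 and PDK4, which spares pyruvate, by 1.11. PPARA fell by 0.53, EHHADH by 0.54 and ACOX2 by 0.91.

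Many hepatocyte genes were lower, and HNF4A was not among them. Of 27 hepatocyte transcription factors 17 were lower and 3 higher, with a median of −0.37. HNF4A was at 471, 461 and 470.5 CPM with P. chinensis against 458, 440.1 and 453 CPM in control. These groups did not overlap, but the difference was 0.05 ± 0.03 (SE), edgeR adjusted p = 0.159. NR1H4, the bile acid receptor FXR, was at 110.0, 98.1 and 111 CPM with P. chinensis against 197, 182 and 185 CPM in control, and its target NR0B2 (SHP) at 10.4, 11.7 and 8.996 CPM with P. chinensis against 18.9, 20.01 and 16.9 CPM in control. Both fell, with log2 fold changes of −0.83 ± 0.05 (SE), edgeR adjusted p = 2.41e-06 and −0.83 ± 0.12 (SE), edgeR adjusted p = 0.000488. NR2F1 fell by 0.80, CEBPA by 0.74, CEBPB by 0.66, and FOXA1, FOXA2 and FOXA3 by 0.41, 0.45 and 0.45. CEBPD, an acute phase factor, rose by 0.75. Of 43 plasma protein and clotting genes 28 were lower and 3 higher, with a median of −0.38. ALB, albumin, was at 3015, 3017 and 2851 CPM with P. chinensis against 4864, 4735 and 4700 CPM in control. The 3 treated libraries were all lower, with a log2 fold change of −0.69 ± 0.03 (SE), edgeR adjusted p = 1.79e-07. AFP, the fetal albumin relative, was at 1962, 1950 and 1888 CPM with P. chinensis against 2184, 2207 and 2183 CPM in control and fell by 0.18, a call lost in the fit of all 12 libraries (adjusted p of 0.15). TFR2, an iron sensor, fell by 1.52, A1BG by 1.39, clotting factor F7 by 1.33 and AHSG by 1.18. The 3 that rose were haptoglobin (HP, 0.94) and the fibrinogen chains FGB (0.69) and FGA (0.32), which are known as acute phase proteins.

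Among apolipoproteins and lipoprotein genes 10 of 22 were lower and 2 higher, with a median of −0.27. APOB, the scaffold of VLDL, was at 6280, 6095 and 5686 CPM with P. chinensis against 11200, 11010 and 11190 CPM in control. It fell, with a log2 fold change of −0.89 ± 0.03 (SE), edgeR adjusted p = 1.3e-07. LRP1, a remnant receptor, fell by 0.69. APOA4, which rises in liver under stress and fasting, was at 10.9, 11.4 and 13.3 CPM with P. chinensis against 3.07, 1.98 and 3.35 CPM in control, and ANGPTL4, an inhibitor of lipoprotein lipase, rose by 1.04. The rise of APOA4 was 2.06 ± 0.19 (SE), edgeR adjusted p = 2.59e-05, and ANGPTL4 lost its call in the fit of all 12 libraries (adjusted p of 0.0529). Of 25 cytochrome P450, conjugation and bile acid genes 6 were higher, a share of 24.0% near that of all genes, and 3 lower. The median of 0.21 was between 0.13 and 0.14 without treated replicate 2, control replicate 1 or control replicate 3, and 0.03 over the 16 with a mean count above 50. BAAT, which joins bile acids to glycine or taurine, was at 4.51, 3.49 and 3.94 CPM with P. chinensis against 1.16, 0.558 and 1.22 CPM in control and rose by 1.99. UGT1A1, the bilirubin transferase whose last exons are common to all UGT1A genes, rose by 1.25 with reads that could be split among them. SULT1A1 fell by 1.36 and CYP4F3 by 0.88. Of 21 bile and drug transporters 11 were lower and 2 higher (1 higher without treated replicate 1, treated replicate 2 or control replicate 3), with a median of −0.42. The uptake carriers SLCO1B3 and SLCO2B1 fell by 0.94 and 0.85, the exporters ABCC6 and ABCC1 by 0.88 and 1.03, and the call of ABCC1 was lost without treated replicate 1 (adjusted p of 0.0534) or control replicate 3 (adjusted p of 0.0593). Of 25 genes of gluconeogenesis and amino acid breakdown 11 were lower and none higher (1 higher without treated replicate 2), with a median of −0.25 that was −0.16 without control replicate 1. The urea cycle enzymes ASS1 and ASL both fell by 0.88. CPS1 and ARG1, enzymes of the same cycle, stood at −0.15 and −0.25 without a call.

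Most replication genes were lower by modest amounts. Of 54 genes 45 were lower and none higher, with a median of −0.44. MCM6 (chr2:135839626-135876443), a subunit of the replicative helicase, was at 177, 169.8 and 167 CPM with P. chinensis against 294, 294 and 288 CPM in control. The groups did not overlap and the log2 fold change was −0.77 ± 0.03 (SE), edgeR adjusted p = 2.08e-07. MCM3 was at 259, 248 and 253 CPM with P. chinensis against 412, 416 and 407 CPM in control and MCM5 at 110.0, 116 and 108.5 CPM with P. chinensis against 174, 191 and 179.9 CPM in control. They fell, with log2 fold changes of −0.70 ± 0.03 (SE), edgeR adjusted p = 1.87e-07 and −0.70 ± 0.04 (SE), edgeR adjusted p = 2.17e-06. POLD1, the catalytic subunit of DNA polymerase delta, fell by 0.77 and lost its call in the fit of all 12 libraries (adjusted p of 0.0868), and PCNA, its sliding clamp, fell by 0.57. Of 19 E2F, DP and pocket protein genes 8 were lower and none higher, with a median of −0.07 (5 lower in the fit of all 12 libraries). That median was −0.11 without treated replicate 2 and −0.15 without treated replicate 3, and 1 gene was higher with library totals alone. E2F2 fell by 0.95, E2F8 by 0.85, E2F1 by 0.47, TFDP1 by 0.46 and MYBL2 by 0.33, and the calls of E2F1 and MYBL2 were lost in that fit (adjusted p of 0.0653 and 0.146). Of 27 genes of dNTP and nucleotide synthesis 18 were lower and 1 higher, with a median of −0.28. DUT, which clears dUTP, fell by 0.80, and the purine enzymes PFAS and GMPS by 0.58 and 0.56. RRM2, the subunit of ribonucleotide reductase that peaks in S phase, stood at −0.34 with overlapping groups and was not called.

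The promoters of MCM6 and MCM3 are shown as examples from the replication genes that fell. POLD1 and MCM5, with falls of similar size, are not shown, and MCM5 had no promoter matched by symbol. Each promoter shown holds the E2F motif TTTNNCGC, searched on both strands, and the capitals mark a match on either strand. As for VGF, a match of letters is no evidence of binding. The motif was found in the 250 bases before the start of 8.78% of tested genes with a RefSeq promoter, of 16 of 45 replication genes (35.6%) and of 14 of 56 histone genes. It was held by 245 of the 2447 genes called lower with such a promoter and by 181 of the 2348 called higher. MCM6 (chr2:135876444-135876693, minus strand) has 4 matches in 2 overlapping pairs, 152 to 141 and 90 to 79 bases before the start, and MCM3 (chr6:52284743-52284992, minus strand) has matches 174 to 167 and 150 to 143 bases before it, from RefSeq on GRCh38.p14.
MCM6: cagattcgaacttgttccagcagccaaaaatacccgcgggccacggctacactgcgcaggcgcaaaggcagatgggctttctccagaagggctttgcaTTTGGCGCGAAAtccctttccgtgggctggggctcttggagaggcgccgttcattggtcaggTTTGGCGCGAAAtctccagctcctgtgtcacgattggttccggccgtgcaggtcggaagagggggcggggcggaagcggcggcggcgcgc
MCM3: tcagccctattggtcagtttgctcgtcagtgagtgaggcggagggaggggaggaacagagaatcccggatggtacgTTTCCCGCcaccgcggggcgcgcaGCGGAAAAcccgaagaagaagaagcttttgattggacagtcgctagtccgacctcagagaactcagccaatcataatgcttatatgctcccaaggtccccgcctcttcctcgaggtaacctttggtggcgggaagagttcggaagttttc

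Replication-dependent histones, which are made in S phase, were lower as a group. Of 61 genes 55 were lower and none higher (1 higher without treated replicate 1), with a median of −0.82. H4C1 was at 42.4, 43.6 and 48.5 CPM with P. chinensis against 126, 144 and 140.1 CPM in control. All treated values were lower, with a log2 fold change of −1.61 ± 0.07 (SE), edgeR adjusted p = 1.79e-07. H2AC21 fell by 1.41, H3C4 by 1.36 and H2AC14 by 1.27. Histone genes are near copies of each other, H4C14 and H4C15 most of all, so the division of reads among them is uncertain. Most mitotic genes that changed were lower. Of 63 genes 35 were lower and 14 higher, the latter a share of 22.2% near the 20.6% of all genes, with a median of −0.23 (22 and 7 in the fit of all 12 libraries). CENPM, a centromere protein, fell by 0.85, UBE2C, a ubiquitin carrier of the anaphase complex, by 0.82, ASPM by 0.65 and CDK1 by 0.63. CKS2, which binds CDK1, was at 75.9, 75.1 and 71.8 CPM with P. chinensis against 48.9, 42.3 and 48.9 CPM in control. It rose without overlap by 0.67 ± 0.06 (SE), edgeR adjusted p = 2.85e-05. The mitotic regulators PTTG1, CDC20, AURKA and CCNB1 rose by 0.43, 0.33, 0.19 and 0.19, and FOXM1, a factor that drives mitotic genes, was at 186, 199.8 and 190.1 CPM with P. chinensis against 186, 191 and 199 CPM in control. The groups of FOXM1 overlapped and it was not called (−0.002 ± 0.04 (SE), edgeR adjusted p = 0.973). Of 16 G1 cyclins, kinases and inhibitors 3 were higher, a share of 18.8% near that of all genes, and 5 lower. The median was −0.11 (1 higher and 4 lower in the fit of all 12 libraries). CDKN2D and CDKN1A (p21) rose by 1.08 and 0.73, CDKN2A fell by 0.78 and SKP2, which targets CDK inhibitors for removal, by 0.60. CDKN2D lost its call in the fit of all 12 libraries (adjusted p of 0.108).

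Some targets of p53 rose and others did not pass the test. Of 38 genes 13 were higher and 2 lower, with a median of 0.16 that was 0.07 without control replicate 1. CDKN1A was at 21.97, 20.1 and 21.8 CPM with P. chinensis against 15.1, 10.7 and 12.7 CPM in control and BTG2, an antiproliferative factor, at 23.7, 25.8 and 24.8 CPM with P. chinensis against 14.3, 12.02 and 12.3 CPM in control. Both rose, by 0.73 ± 0.13 (SE), edgeR adjusted p = 0.00132 and 0.94 ± 0.10 (SE), edgeR adjusted p = 5.86e-05. MDM2 (chr12:68808177-68845544), the ubiquitin ligase that p53 induces against itself, was at 235, 241 and 231 CPM with P. chinensis against 311, 307 and 303 CPM in control. It fell without overlap, with a log2 fold change of −0.38 ± 0.03 (SE), edgeR adjusted p = 1.02e-05. PLK2, GDF15, GADD45A and PMAIP1, at 2.22, 1.44, 1.43 and 0.78, rose and are known to answer stress by other routes as well. FAS, TNFRSF10B, SESN1, ZMAT3 and XPC stood between −0.08 and 0.02 without a call. Of 37 genes of the BCL2 family, death receptors and caspases 13 were higher and 4 lower, with a median of 0.09 (7 and 2 in the fit of all 12 libraries). That median was 0.16 without control replicate 2 and 0.06 over the 33 with a mean count above 50. BIK is a BCL2 family member that has only the BH3 motif of that family. It was at 1.89, 1.19 and 2.01 CPM with P. chinensis against 0, 0.310 and 0.251 CPM in control. It rose by 3.15 ± 0.62 (SE), edgeR adjusted p = 0.00278, on few counts. BMF and PMAIP1 (NOXA), of the same kind, rose by 1.25 and 0.78, and the survival protein MCL1 by 0.34. PARP1 fell by 0.30. CASP8 and FADD, which start death at the receptors, stood at −0.05 and −0.08 with overlapping groups and no call.

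Tubulins changed in opposite directions. Of 14 genes 6 were higher and 6 lower, with a median of −0.12 (3 and 4 in the fit of all 12 libraries) that was −0.07 without treated replicate 3. Besides TUBA1A, the neuronal beta tubulin TUBB3 was at 130.3, 125 and 127 CPM with P. chinensis against 46.7, 52.9 and 47.5 CPM in control. It rose by 1.38 ± 0.05 (SE), edgeR adjusted p = 1.21e-07. TUBB, the beta tubulin of most cells, was at 1040, 1085 and 1025 CPM with P. chinensis against 1763, 1777 and 1707 CPM in control. It fell without overlap, with a log2 fold change of −0.74 ± 0.03 (SE), edgeR adjusted p = 1.64e-07. TUBA4A, TUBA1B and TUBA1C fell by 0.89, 0.54 and 0.40. Tubulin genes share much of their coding sequence, so the division of reads among copies is uncertain.

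All 13 protein genes of the mitochondrial genome had a positive log2 fold change and 12 were called higher, with a median of 0.44. In the fit of all 12 Huh7 libraries 1 was called. MT-ND3 was at 303, 272 and 348 CPM with P. chinensis against 180.2, 139 and 174 CPM in control, a rise of 0.90 ± 0.10 (SE), edgeR adjusted p = 0.000107. MT-ND5, MT-CYB and MT-ND2 rose by 0.79, 0.62 and 0.50, and these 3 lost their calls in that fit (adjusted p of 0.0884, 0.109 and 0.167). Mitochondrial mRNA made up 2.53% to 2.90% of counts in the treated and 1.93% to 2.26% in the control libraries. Its part in the other results was not tested. Of 77 cytosolic ribosomal proteins 26 were higher and 3 lower, with a median of 0.10. In the fit of all 12 libraries 1 was higher and 1 lower. Without control replicate 2 16 were higher, without treated replicate 3 or control replicate 1 5 were lower, and without treated replicate 3 the median was 0.04. RPL35 and RPLP2 rose by 0.32 and 0.30, and RPLP2 lost its call in that fit (adjusted p of 0.156). RPS9 and RPS26 had larger values (1.58 and 0.55) but lost their calls under DESeq2 (adjusted p of 0.0867 and 0.0854) and in the fit of all 12 libraries (adjusted p of 0.167 and 0.15), and RPS9 had overlapping groups. Ribosomal protein genes have many processed copies in the genome, so these estimates are uncertain.

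**Figure D3:**
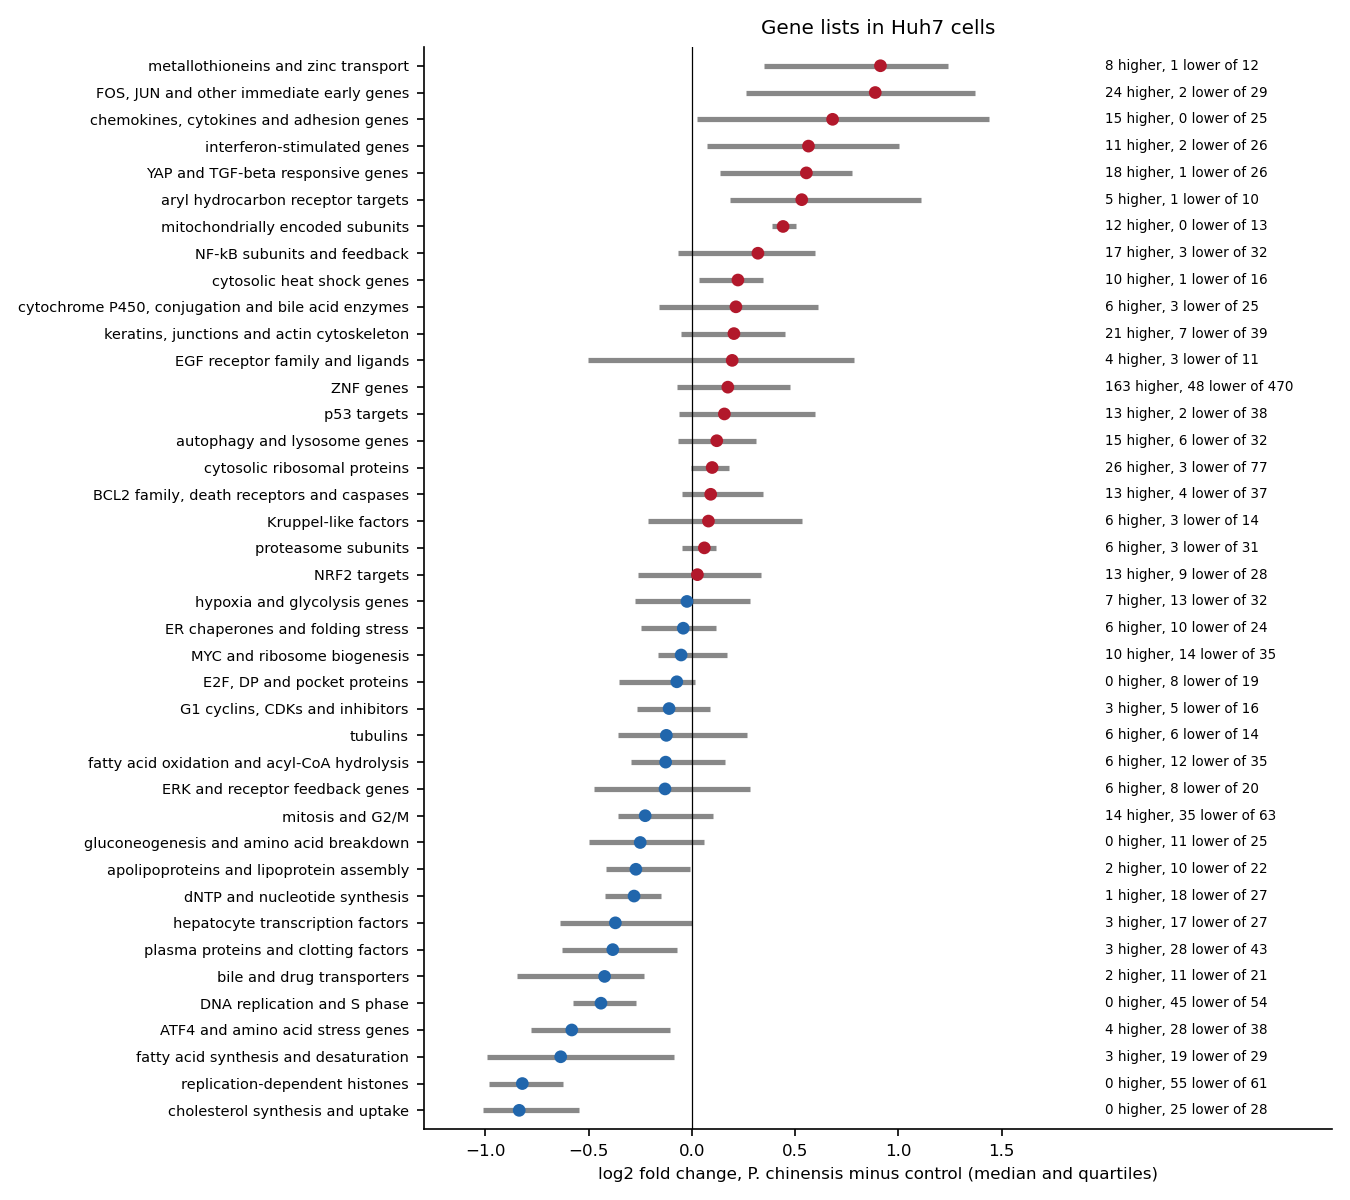
Median log2 fold change of each of the 40 gene lists (points, horizontal axis, P. chinensis minus control) with the quartiles of its members (bars) and the number of members called, 1 row per list. Early response genes (median 0.89), metallothioneins (0.91) and chemokines (0.68) lie to the right, and cholesterol synthesis (−0.84), replication-dependent histones (−0.82), fatty acid synthesis (−0.64) and ATF4 genes (−0.58) to the left.

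The response of Huh7 cells was then set against that of A549 cells to the same herb, which asks where the liver line differed. The interaction was tested for 13022 genes in 12 libraries, with the lines' own controls. The log2 fold change was higher in Huh7 for 2126 genes (16.3%) and lower for 1758 (13.5%). Replication genes fell less in Huh7. The median was −0.44 in Huh7 and −1.26 in A549, and the difference passed the test for 48 of 54 genes, all of them in the direction of Huh7 higher. MCM6 fell by 0.77 in Huh7 and stood at −1.14 in A549, a difference of 0.35 ± 0.06 (SE), edgeR adjusted p = 0.00068. Mitotic genes had medians of −0.23 and −1.33, with 62 of 63 differing, and E2F genes medians of −0.07 and −0.60, with 10 of 19 differing. CKS2 rose in Huh7 and stood at −0.58 in A549 (1.22 ± 0.11 (SE), edgeR adjusted p = 1.52e-06). Histones had medians of −0.82 and −1.94, with 49 of 55 differing.

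Targets of p53 rose less in Huh7. Their medians were 0.16 in Huh7 (0.07 in its own fit without control replicate 1) and 1.16 in A549, with 29 of 38 lower in Huh7 and 3 higher. MDM2 fell by 0.38 in Huh7 and stood at 1.97 in A549, a difference of −2.37 ± 0.05 (SE), edgeR adjusted p = 4.01e-12. CDKN1A was at 0.73 and 2.53 (−1.83 ± 0.16 (SE), edgeR adjusted p = 1.43e-06).

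Sterol genes fell in Huh7 and as a group did not fall in A549. Of 27 cholesterol genes tested in both lines 21 were lower and 1 higher in Huh7, and the A549 median was 0.04. MVD stood at −1.42 in Huh7 and 0.62 in A549 (−2.06 ± 0.11 (SE), edgeR adjusted p = 2.37e-08). Of 28 fatty acid synthesis genes 17 were lower and 2 higher in Huh7, and ACSS2 stood at −1.63 and 0.68 (−2.34 ± 0.14 (SE), edgeR adjusted p = 4.27e-08). Of 38 ATF4 genes 23 were lower and 4 higher, with medians of −0.58 in Huh7 and −0.27 in A549.

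Early response genes had medians of 0.89 in Huh7 and 0.28 in A549, with 12 of 29 higher and 5 lower in Huh7. Of 25 YAP and TGF-beta responsive genes 12 were higher and 3 lower. Of 32 NF-kB genes 4 were higher in Huh7 and 6 lower, shares near those of all genes, with medians of 0.32 and 0.26. TNFAIP3 stood at 2.01 in Huh7 and 1.73 in A549 (0.27 ± 0.34 (SE), edgeR adjusted p = 0.599), and BIRC3 at 2.92 and 1.61 (1.29 ± 0.18 (SE), edgeR adjusted p = 0.000126). ZC3H12A stood at 1.14 and −0.80 (1.92 ± 0.24 (SE), edgeR adjusted p = 3.58e-05). Mitochondrially encoded genes were higher in Huh7 for 9 of 13 and lower for none.

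**Figure D4:**
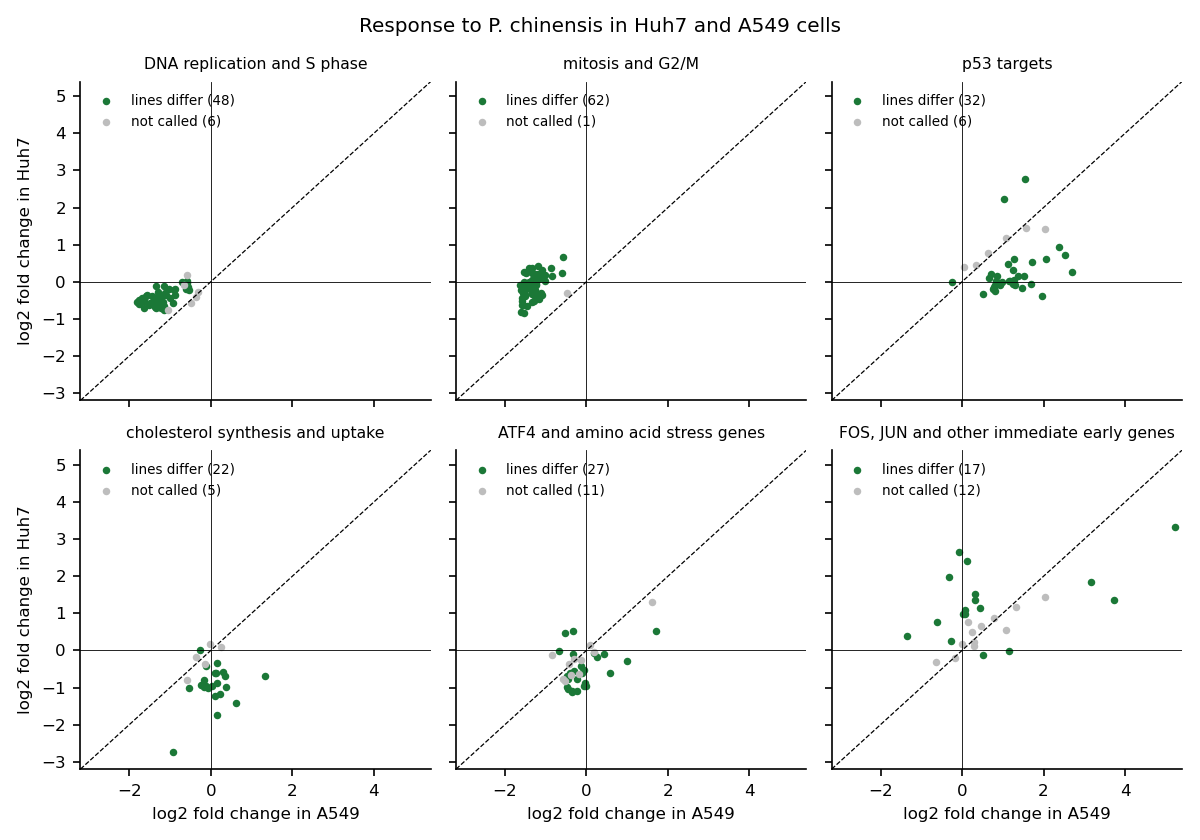
Log2 fold change of P. chinensis against control in Huh7 (vertical axes) against that in A549 (horizontal axes) for 6 gene groups; each point is a gene, green where the interaction passed an adjusted p of 0.05 and grey where it did not, and the diagonal marks equal change. The green replication genes (48 of 54) and mitotic genes (62 of 63) lie above the diagonal, and 29 of the 32 green p53 targets lie below it.

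Within Huh7, P. chinensis was also set directly against B. chinense, without the control samples, which asks what differed between the herbs. Of 13921 genes 1476 (10.6%) were higher with P. chinensis and 1728 (12.4%) lower. Without treated replicate 1 of P. chinensis 948 were higher and without its replicate 3 953. Early response genes were higher with P. chinensis for 22 of 29 and lower for none, and chemokines for 12 of 25 and none. FOSB was higher by 1.77 ± 0.11 (SE), edgeR adjusted p = 1.4e-05, ATF3 by 1.20 ± 0.13 (SE), edgeR adjusted p = 0.000307 and CXCL8 by 1.68 ± 0.10 (SE), edgeR adjusted p = 1.01e-05. NF-kB genes were higher for 12 of 32 and lower for 1, and BIRC3 was higher by 1.86 ± 0.17 (SE), edgeR adjusted p = 0.000116. Metallothioneins and zinc genes were higher for 8 of 12 and lower for 1.

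Cholesterol genes were lower with P. chinensis than with B. chinense for 24 of 28 and higher for none. INSIG1 was lower, with a log2 difference of −1.06 ± 0.06 (SE), edgeR adjusted p = 9.13e-06. Fatty acid synthesis genes were lower for 17 of 29 and higher for 2, ATF4 genes lower for 19 of 38 and higher for 5. Replication genes were lower for 41 of 54 and histones for 39 of 61, with none higher in either group. MCM6 differed by −0.56 ± 0.04 (SE), edgeR adjusted p = 2.22e-05 and H4C1 by −0.54 ± 0.07 (SE), edgeR adjusted p = 0.000597. Ribosomal proteins were higher for 37 of 77 and lower for none, and YAP and TGF-beta responsive genes higher for 17 of 26 and lower for 1.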

How the data were processed

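The authors mapped reads to the Ensembl GRCh38.p13 transcripts (release v108) with kallisto after FastQC, retained protein-coding genes whose counts averaged over 5, and deposited a table of whole-number estimated counts, not normalized. How transcript estimates were summed is not given in the sources used here, and counts shared by near-identical genes depend on that estimation. Groups came from the sample labels, and the other 18 samples were left out of the comparison with control.

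Genes with a mean above 5 counts in the 6 samples were normalized by TMM and tested in R 4.3.3 with edgeR 4.0.16 (glmQLFit and glmQLFTest, two-sided), with Benjamini-Hochberg adjustment at 0.05. A prior count of 2 entered only the log CPM used for the principal components and for correlations between libraries. CPM values were TMM-scaled, and fold changes are log2, treated minus control. The standard error (SE) beside a fold change is its absolute value divided by the square root of the F statistic of the test. This SE restates that test and is no separate measure of spread. The interaction with A549 and the comparison with B. chinense were separate fits. Pipelines were tested on simulated data. Alternatives were DESeq2 1.42.0, limma 3.58.1 (voom), other scalings and filters, all 12 Huh7 samples, a replicate block and leaving out each replicate.

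The 40 gene lists, their members and the comparison were chosen with earlier results of these data known. Named genes (193) were the 15 largest rises and falls without overlap among genes averaging at least 100 counts, up to 4 called members per list that averaged at least 50 counts, and a fixed set of regulators and markers. Some genes that this rule gave are not reported here. Every other gene in the text was named after its values were seen. Promoters were matched by symbol for 11337 of 13987 genes.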

Additional observations from a re-analysis of the deposited data

Results flagged for a closer look

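The change with P. chinensis differed between Huh7 and A549 by the interaction in edgeR's quasi-likelihood test (adjusted p below 0.05) for 2126 genes with the higher log2 fold change in Huh7 and 1758 with the lower. Among the named genes, 18 had in addition been called in opposite directions in the lines. Called higher in Huh7 and lower in A549 were CEBPD (a difference, Huh7 minus A549, of 1.65), CKS2 (1.22), MT-ND2 (0.92), MUC13 (3.35), MYC (0.51), NCL (0.93), PDK4 (1.77), PPARGC1A (2.94) and ZC3H12A (1.92). Of these, MT-ND2, MYC and NCL lost their Huh7 calls in the fit of all 12 Huh7 libraries (edgeR adjusted p of 0.167, 0.0953 and 0.439). Called lower in Huh7 and higher in A549 were ACSS2 (−2.34), APOB (−2.57), LRP1 (−1.65), MDM2 (−2.37), MVD (−2.06), PFKFB4 (−1.73), SLCO2B1 (−2.82), SOCS1 (−5.11) and SPRY2 (−1.12). APOB, MUC13 and SLCO2B1 are known as genes of liver or gut epithelium. Groups of 3 libraries were not searched for single samples that stand apart.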

How the results depend on the processing

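A fit of all 12 Huh7 libraries, which brings the other herb groups into both the spread and the scaling, gave 1372 genes higher and 1589 lower, and 169 of 193 named genes stayed on their side of the threshold while 24 lost their call. What part of that fit lowered the counts was not tested. Upper quartile scaling raised the medians of the 40 gene lists by 0.0508 to 0.0519. This and library totals each moved 13 of these medians by more than 1.5-fold, and the count of members called lower in 5 lists. A minimum absolute log2 fold change of 1 left 554 higher and 168 lower. DESeq2, limma's voom, RLE and upper quartile scaling, library totals alone and other filters on low counts gave 2596 to 3624 higher and 2442 to 3038 lower. Without 1 library, 2369 to 2559 were higher and 2587 to 2788 lower. The interaction gave 1778 to 1917 higher and 1510 to 1864 lower, and the comparison with B. chinense 948 to 1387 higher and 1181 to 1580 lower, the lowest pair without treated replicate 1. Samples with the same number did not deviate together (correlations of −0.00585, −0.0482 and −0.00787), so the numbers are not taken to pair them. With the replicate block 2753 genes were higher and 2909 lower, 1894 and 1575 in the interaction, and 1120 and 1359 against B. chinense, and RPS9 alone of the named genes lost its call (adjusted p of 0.0795).

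The sign turned for CASP8 and FOXM1 among the named genes, neither of which was called. With upper quartile scaling the log2 fold changes were 0.00396 and 0.0494. With library totals they were 0.00835 and 0.0541. With a mean count above 50, FOXM1 was at 0.0126. Without 1 library the ranges were −0.12 to 0.00961 for CASP8 and −0.0331 to 0.0254 for FOXM1. The cause was not tested. With 3 libraries a group, small changes of genes with few counts were not detectable.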

Other observations

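Of 32 genes of glycolysis and the hypoxia response 13 were lower and 7 higher, the latter a share of 21.9% near the 20.6% of all genes. Their median of −0.02 turned to 0.03 with library totals alone and to 0.0023 without control replicate 1. ENO2, the neuronal enolase, was at 9.88, 9.50 and 9.52 CPM with P. chinensis against 4.28, 4.52 and 3.81 CPM in control and rose by 1.20 ± 0.13 (SE), edgeR adjusted p = 7.41e-05. NDRG1, a hypoxia-induced differentiation protein, rose by 0.75, and PFKP, the platelet phosphofructokinase, by 2.63. The other phosphofructokinases PFKL and PFKM fell by 0.53 and 0.73. PFKFB4, which sets the level of their activator, fell by 1.01 and its relative PFKFB3 rose by 0.64. The lactate exporter SLC16A3 fell by 0.84, and VEGFA, a gene known for its rise in hypoxia, by 0.27. Of 32 autophagy and lysosome genes 15 were higher and 6 lower, with a median of 0.12 (8 and 1 in the fit of all 12 Huh7 libraries). CTSL, a lysosomal protease, was at 28.9, 28.4 and 34.05 CPM with P. chinensis against 15.3, 11.8 and 12.9 CPM in control. All treated values were higher, by 1.18 ± 0.12 (SE), edgeR adjusted p = 4.06e-05. ATG14, NPC2 and MAP1LC3B, which act in vesicle nucleation, cholesterol exit and the autophagosome membrane, rose by 1.06, 0.99 and 0.73.

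Of 470 ZNF genes, which mostly encode C2H2 zinc finger factors, 163 were higher and 48 lower, with a median of 0.17 (107 and 26 in the fit of all 12 libraries). ZNF462 rose by 1.92, ZNF114 by 1.28 and ZNF165 by 1.27. Many of these genes are near copies, so that their reads could be split. Of 35 genes of MYC and ribosome biogenesis 10 were higher and 14 lower (0 and 5 in that fit), and the median of −0.05 turned to 0.00333 with library totals alone. It lay between −0.03 and −0.01 without treated replicate 1, treated replicate 2 or control replicate 2, and without treated replicate 1 6 were higher. NCL, nucleolin, rose by 0.32, and SRM, POLR1B and BOP1 fell by 0.44, 0.35 and 0.32. NCL and BOP1 lost their calls in the fit of all 12 libraries (edgeR adjusted p of 0.439 and 0.097). Of 31 proteasome subunits 6 were higher, a share of 19.4% near that of all genes, and 3 lower, with a median of 0.06 (1 and 1 in that fit). Without treated replicate 1 or control replicate 3 2 were higher, without control replicate 2 3, and with library totals alone 15, and the median was 0.03 without control replicate 3. PSMA5 rose by 0.66, PSMC2 by 0.21 and PSMD2 by 0.19, and PSMD11 fell by 0.28. The calls of PSMC2 and PSMD2 were lost in that fit (adjusted p of 0.309 and 0.0736), and PSMC2 also lost its call in 5 of the 6 fits without 1 library (adjusted p of 0.0584 to 0.113).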
